A study of Drosophila melanogaster with 13 samples.

Results

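The insulin and TOR signalling genes described here are InR, chico, Akt, foxo, Rheb, Tor, raptor, S6k and Thor, chosen by symbol. All 9 of the 9 symbols asked for had a row in both of the authors' deposited tables, among 8369 rows shared by the tables, of which 8187 are genes and the rest transposons. RNA was measured in OSC, a wildtype line of ovarian somatic cells of Drosophila melanogaster, kept in a medium that contained insulin, serum and fly extract. Groups siARMI and siYB received small interfering RNA (siRNA) against armi and fs(1)Yb, the genes of the piRNA pathway factors Armitage and Yb, and the control group siLUC received siRNA that the series design names as the control. Each group had 3 libraries, transfected at 0 and 48 h and harvested at 96 h, and every group carried the same medium, so all levels below are those of cells cultured with added insulin. Another 4 libraries, from labelling with 4 mM 4-thiouridine for 10 min and its input, were not analysed here.

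Insulin-like peptides bind the receptor InR, which acts through the adaptor Chico and phosphoinositide 3-kinase to activate the kinase Akt. Akt keeps the transcription factor Foxo out of the nucleus and relieves the small GTPase Rheb from inhibition by the TSC complex. Rheb activates the kinase TOR in its complex with Raptor, and that complex phosphorylates the kinase S6k and the translation repressor Thor, the fly 4E-BP. In flies Foxo is known to activate transcription of InR and Thor, and the pathway controls the growth and proliferation of follicle cells. The assay measured transcript levels and not phosphorylation, by which most of these proteins are controlled.

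The authors' deposited tables hold no value per library. Each row holds the normalised read count averaged over both groups, the log2 fold change and its error, and a p-value before and after adjustment. Group means were therefore back-calculated from the mean count and the fold change of the siARMI table, taking 3 libraries of equal weight in each group. Such means carry no error of their own. The authors had shrunk the fold changes toward 0, so differences between back-calculated means are too small, by an amount that is not known for each gene. The libraries are not stated to come from separate cultures, so p-values cover no more than library-to-library spread, which may be technical.

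Transcripts of ovarian somatic cell markers were present in the cells. All 8 markers of follicle cells and other ovarian somatic cells had rows in the authors' deposited table for siARMI. Their mean normalised counts ran from 143.5 for bab1 to 7939 for zfh1, with tj at 5825, beside a median of 216.6 over all rows. Some markers of other cell types lay above bab1, with elav at 337.1 and srp at 189.4 in the authors' deposited table. Of the germ cell markers, vas, aub, rhi, osk and bam had mean counts between 2.29 and 6.34 in the authors' deposited table, nos had no row, and AGO3 stood at 78.0. The siRNAs lowered their targets: in the authors' deposited tables armi stood at −1.92 ± 0.07 (log2) in siARMI cells and fs(1)Yb at −2.17 ± 0.51 in siYB cells (Benjamini-Hochberg adjusted p = 3.98e-174 and 6.04e-04).

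After Armitage knockdown Thor fell, S6k and Akt rose slightly, and the other 6 signalling genes did not pass the test. A row was called where the Benjamini-Hochberg adjusted p of the authors' deposited table was under 0.05. Of the 9 genes 3 were called (33.3%), 2 of them higher and 1 lower, and 28.6% of all 8473 tested rows were called, 15.2% higher and 13.4% lower. The share of the signalling genes was thus near that of the whole table. Their median log2 fold change was −0.01, as was that of all rows (−0.01) in the authors' deposited table. In these bulk samples, fewer cells of a type and less RNA per cell cannot be told apart.

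**Figure D1:**
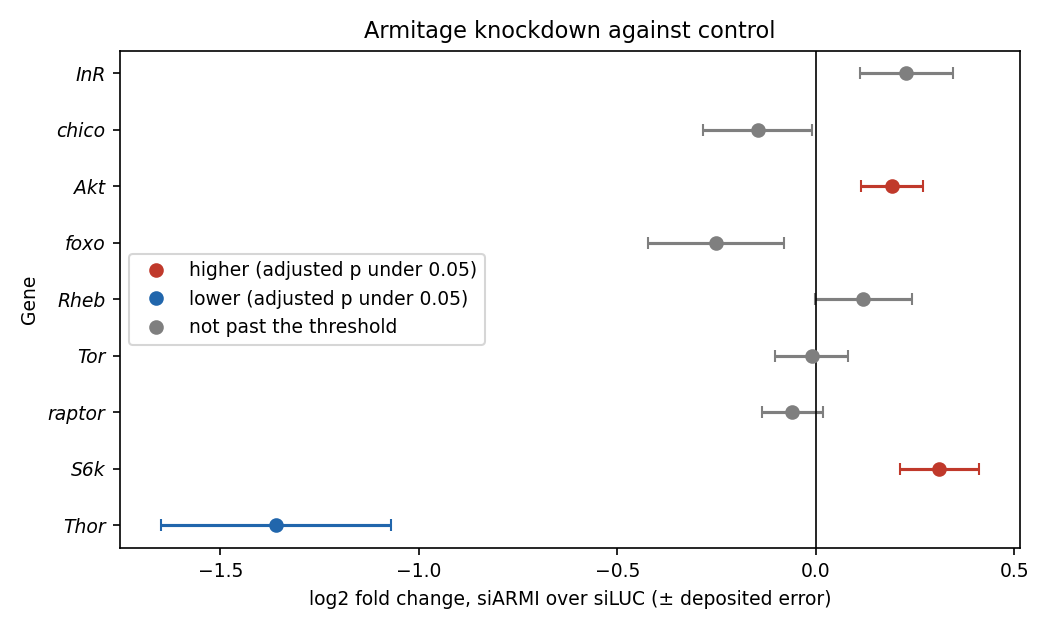
Log2 fold change of each signalling gene (rows), siARMI over siLUC, in the authors' deposited table, with bars for ± 1 deposited error and colour for the call. Thor lies far to the left at −1.36, S6k and Akt lie to the right at 0.31 and 0.19, and the bars of the other 6 genes lie within 0.5 of 0.

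Thor, the translation repressor (FBgn0261560; chromosome 2L, 3478434 to 3479612, plus strand, BDGP6.54), showed the largest change of the 9 genes. Its back-calculated mean was 34.0 normalised counts in siARMI cells and 87.4 in siLUC cells. In the authors' deposited table its log2 fold change was −1.36 ± 0.29 (Benjamini-Hochberg adjusted p = 3.04e-06), that is 0.390 times the control level with an approximate 95% interval from 0.263 to 0.578. Only 1.42% of all rows had a lower log2 fold change in that table. Thor was also the gene of the 9 with the lowest mean count, 60.7, and the largest error in the authors' deposited table.

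S6k, the TOR-dependent kinase of ribosomal protein S6 (FBgn0283472; chromosome 3L, 5797549 to 5810931, minus strand, BDGP6.54), had a back-calculated mean of 930.4 in siARMI cells and 749.9 in siLUC cells. It rose by 0.31 ± 0.10 on the log2 scale in the authors' deposited table (Benjamini-Hochberg adjusted p = 0.00639), or 1.24 times with an interval from 1.08 to 1.42. Akt, the central kinase of the pathway (FBgn0010379; chromosome 3R, 16099228 to 16105670, plus strand, BDGP6.54), had back-calculated means of 1320 in siARMI cells and 1155 in siLUC cells. Its rise of 0.19 ± 0.08 in the authors' deposited table passed narrowly (Benjamini-Hochberg adjusted p = 0.0445), at 1.14 times the control level with an interval from 1.03 to 1.27. Both changes are below the median size of a called row, which is 0.48 (absolute log2) in the authors' deposited table.

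**Figure D2:**
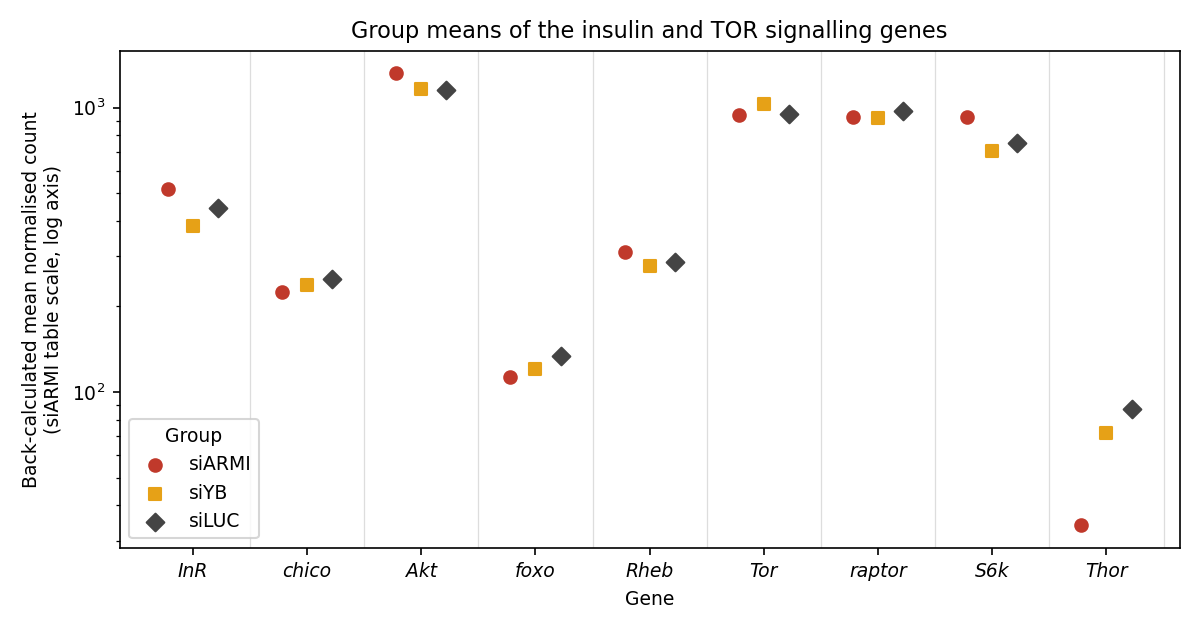
Back-calculated mean normalised count of each signalling gene in the siARMI, siYB and siLUC groups, on the scale of the siARMI table (log axis). The Thor symbols spread the most, at 34.0 in siARMI, 71.5 in siYB and 87.4 in siLUC, and the 3 symbols of each of the other 8 genes lie close together.

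Upstream, InR, the insulin receptor gene (FBgn0283499; chromosome 3R, 21570248 to 21619321, minus strand, BDGP6.54), had back-calculated means of 519.0 in siARMI cells and 443.0 in siLUC cells. In the authors' deposited table it stood at 0.23 ± 0.12, with an unadjusted p of 0.0403 that did not pass after adjustment (Benjamini-Hochberg adjusted p = 0.113). With InR, 4 of the 9 genes were under 0.05 before adjustment, beside 37.3% of all rows. The gene of the adaptor, chico (FBgn0024248; chromosome 2L, 10242512 to 10247078, minus strand, BDGP6.54), had means of 225.6 in siARMI cells and 249.6 in siLUC cells and stood at −0.15 ± 0.14 in the authors' deposited table (Benjamini-Hochberg adjusted p = 0.440). For foxo, the transcription factor gene (FBgn0038197; chromosome 3R, 14056945 to 14087978, plus strand, BDGP6.54), the means were 112.9 in siARMI cells and 134.4 in siLUC cells. Its log2 fold change was −0.25 ± 0.17 in the authors' deposited table (Benjamini-Hochberg adjusted p = 0.238), with an interval of the fold from 0.666 to 1.06. The estimates of InR and Thor had opposite signs, and only that of Thor passed the test. Whether Foxo activity changed was not tested.

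The GTPase and the TOR complex itself did not pass the test. The fold change of Rheb (FBgn0041191; chromosome 3R, 5568921 to 5570491, plus strand, BDGP6.54) was 0.12 ± 0.12 on the log2 scale in the authors' deposited table (Benjamini-Hochberg adjusted p = 0.490), with back-calculated means of 310.7 in siARMI cells and 285.9 in siLUC cells. Tor, which the annotation names mTor (FBgn0021796; chromosome 2L, 13004480 to 13013197, plus strand, BDGP6.54), had means of 939.7 in siARMI cells and 946.7 in siLUC cells. In the authors' deposited table its log2 fold change was −0.01 ± 0.09 (Benjamini-Hochberg adjusted p = 0.950), with an interval of the fold from 0.877 to 1.12. For raptor, the gene of the scaffold that recruits TOR substrates (FBgn0029840; chromosome X, 6082634 to 6090201, minus strand, BDGP6.54), the log2 fold change was −0.06 ± 0.08 in the authors' deposited table (Benjamini-Hochberg adjusted p = 0.617). Its means were 930.7 in siARMI cells and 969.5 in siLUC cells, and the interval of its fold ran from 0.864 to 1.07. A fold of 1.24, the estimate for S6k, lies outside the intervals of Tor and of raptor. The interval of S6k itself, from 1.08 to 1.42, overlaps that of Tor, and differences between genes were not tested. The count of raptor is uncertain, since 23.5% of its exon length overlaps exons of Mipp2 on the same strand. On the opposite strand asRNA:CR44959 overlaps 3.4% of the exon length of raptor and asRNA:CR44995 overlaps 10.6% of that of chico. Any use of strand in counting was not given, so these overlaps may also bear on the counts.

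**Figure D3:**
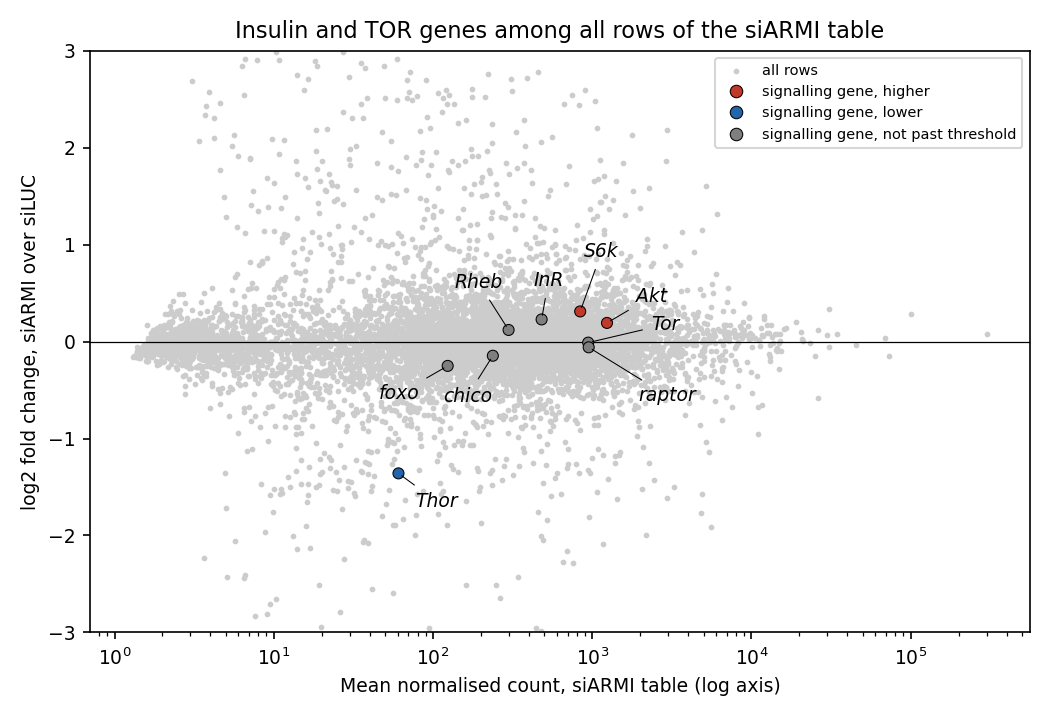
Log2 fold change (siARMI over siLUC) against mean normalised count (log axis) for every row of the siARMI table in grey, with the 9 signalling genes named. Thor sits at the lower edge of the cloud at a mean count of 60.7, and the other 8 genes sit inside it; 92 rows with an absolute log2 fold change above 3 lie outside the axis.

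The transcripts of the pathway differed in abundance by 8.45 times once divided by exon length. In mean normalised counts per kb of exon over the 6 libraries of the siARMI table, Akt was highest at 253.1 and Rheb came next at 243.5. The substrate kinase S6k followed at 172.0, then raptor at 133.9, Tor at 118.1 and Thor at 80.4. The level per kb was 66.4 for chico, 42.3 for InR and 29.9 for foxo. This order is that of the mean over both groups. Thor held that place in siLUC cells but not in siARMI cells. It had 45.1 back-calculated counts per kb in siARMI cells, below chico at 63.0 and InR at 45.7. In siLUC cells it had 115.7, above chico at 69.8 and InR at 39.0. Without values per library the differences between neighbours in this order were not tested.

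After Yb knockdown none of the 9 genes was called, at a background of 0.189% of 8478 tested rows called. Their unadjusted p-values in the authors' deposited table ran from 0.743 for Tor to 0.983 for Akt, so 0 of 9 were under 0.05, beside 66 (0.778%) of all rows. If no row changed, a share of about 0.05 of p-values would be expected under 0.05. The share seen in siYB was smaller, so its test was conservative and a missing call says little about these genes. The deposited siYB log2 fold changes carry no size for these genes, as they are among the 8458 of 8480 rows (99.7%) whose estimates were shrunk to about 0. A size was therefore back-calculated from the mean counts. Since both tables contain the siLUC libraries, the control mean taken from the siARMI table fixes the siYB mean, after the siYB counts are multiplied by 3.70. This factor is the median over shared rows of the ratio between that control mean and the siYB table's mean count. It reflects a gap in scale: summed mean counts were 1.64e+06 for the Yb comparison, against 6.21e+06 for the Armitage comparison. Whether library depth differed between the groups was not tested, as no value per library was available. The siYB calls, and the equal weight given to each library in the back-calculation, are limited by this unknown.

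**Figure D4:**
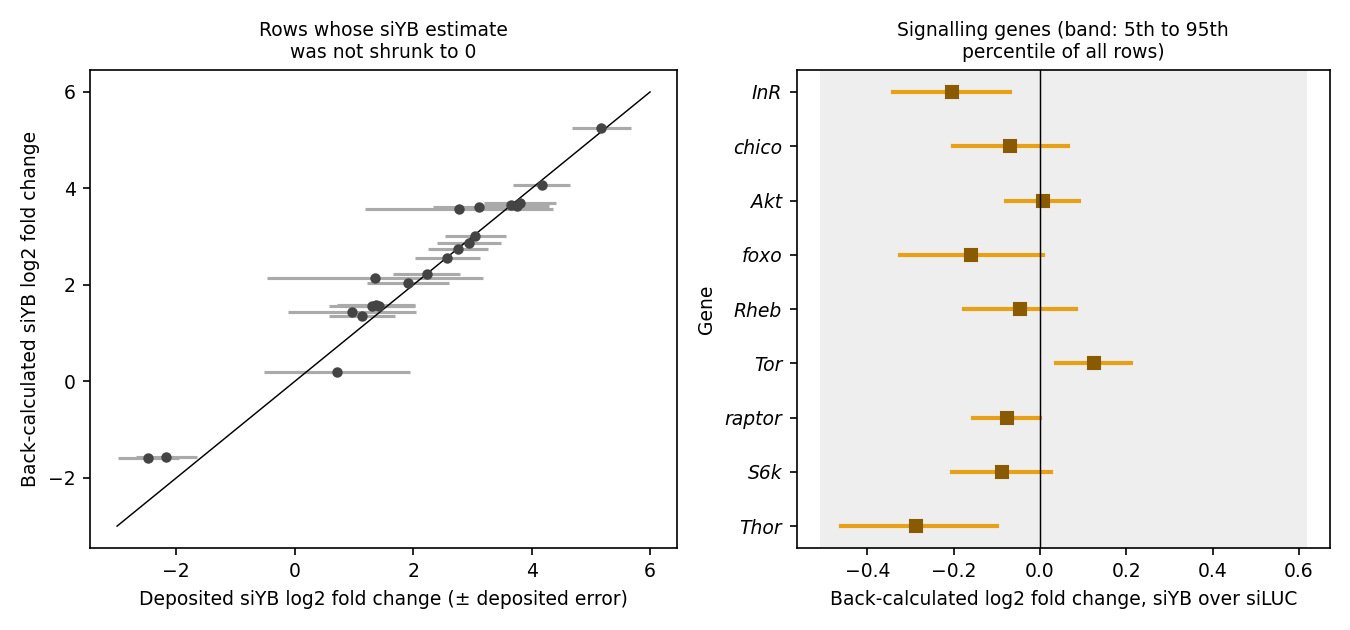
Left, back-calculated against deposited siYB log2 fold change (± deposited error) for the 22 rows whose deposited estimate was not shrunk to 0, with the line of equality. Right, the back-calculated siYB over siLUC log2 fold change of each signalling gene, with a bar for ± 1 deposited error of its siARMI fold change, and the 5th to 95th percentile of all rows as a band: all 9 genes lie inside the band of −0.51 to 0.62.

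In the 22 rows not shrunk to 0 the back-calculated siYB value differed from the deposited log2 fold change by a median of 0.133 and at most by 0.882. The deposited errors of these rows, 0.455 to 1.82 in the authors' deposited table, are wider than any value of the 9 genes, so this comparison does not show that values of that size are accurate. The rows that differed by more than 1 deposited error were both lower in siYB, fs(1)Yb at −1.57 against −2.17 deposited and antisense rover at −1.59 against −2.47 deposited in the authors' deposited table, so falls may be understated. For the 9 signalling genes the back-calculated log2 fold change ran from −0.29 to 0.12, with a median of −0.08. It was −0.29 for Thor, with a range of −0.46 to −0.10 when the siARMI fold change was moved by its error (the only error these ranges cover), and −0.20 for InR, with a range of −0.34 to −0.07. The value for S6k was −0.09 and that for Akt 0.01, and for foxo it was −0.16, while Tor stood at 0.12. These values share the siLUC libraries with the siARMI results and are descriptions without a test. Whether the change of Thor differed between the knockdowns was not tested.

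Among the other genes of the pathway, 56 of 66 listed symbols had rows, and Armitage knockdown raised 12 of them and lowered 8, with 36 not past the test. The share called was 35.7%, beside 28.6% of all rows, and the median log2 fold change was 0.02 in the authors' deposited table. After Yb knockdown the authors' deposited table called 0 of the 56, and 1 was under 0.05 before adjustment. Of all rows 0.189% were called after Yb knockdown and 0.778% were under 0.05 before adjustment.

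Both secreted regulators of the receptor with more than a few counts changed after Armitage knockdown. Ilp6, an insulin-like peptide gene known for its expression in the fat body, rose by 1.52 ± 0.15 in the authors' deposited table (Benjamini-Hochberg adjusted p = 4.14e-22), with back-calculated means of 376.6 in siARMI cells and 131.6 in siLUC cells. ImpL2, whose product binds insulin-like peptides and limits signalling, fell by 2.01 ± 0.15 on the log2 scale in the authors' deposited table (Benjamini-Hochberg adjusted p = 1.10e-40), with means of 189.3 in siARMI cells and 760.9 in siLUC cells. The other rows of this list, Ilp8 and Sdr, did not pass and had mean counts of 6.49 and 6.45 in the authors' deposited table, and 6 of the 10 symbols, all insulin-like peptides, had no row. Thus 1 of 4 measured members rose and 1 fell, beside 15.2% of all rows called higher and 13.4% lower. Of 5 markers of hemocytes and fat body only srp had a row, and its back-calculated mean was 255.6 in siARMI cells and 123.3 in siLUC cells; its part in the result for Ilp6 was not tested.

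In the branch of phosphoinositide 3-kinase 4 of 9 measured genes rose and 0 fell after Armitage knockdown, beside 15.2% of all rows called higher and 13.4% lower. The tyrosine phosphatase gene Ptp61F rose by 0.39 ± 0.09 and the adaptor gene dock by 0.27 ± 0.10 in the authors' deposited table. The kinase gene sgg rose by 0.23 ± 0.09 and Pi3K92E, the catalytic subunit, by 0.22 ± 0.07 in the authors' deposited table. The kinase gene Pdk1 stood at −0.17 ± 0.10 and the regulatory subunit gene Pi3K21B at 0.09 ± 0.08 in the authors' deposited table, neither past the test. The 4 called changes of this branch were smaller than that of the median called row. Before adjustment 1 gene was also lower at a p under 0.05, melt, at a mean count of 1.58 in the authors' deposited table.

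The partners of TOR in its complexes gave 0 calls among 4 genes in the authors' deposited table, and 0 were under 0.05 before adjustment. Of all rows 28.6% were called and 37.3% were under 0.05 before adjustment. The gene of the second complex's scaffold, rictor, stood at 0.01 ± 0.08 and PRAS40, an inhibitor of the first complex, at −0.04 ± 0.08 in the authors' deposited table. For Lst8 and Sin1 the log2 fold changes were −0.11 ± 0.11 and 0.23 ± 0.17 in the authors' deposited table.

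Of the TSC complex and its inputs 2 of 9 genes rose and 2 fell after Armitage knockdown, beside 15.2% of all rows called higher and 13.4% lower. Sesn, the sestrin gene, whose product restrains TOR under stress and which is itself known as a target of Foxo, rose by 1.06 ± 0.06 in the authors' deposited table (Benjamini-Hochberg adjusted p = 7.40e-59). Its back-calculated mean was 2991 in siARMI cells and 1433 in siLUC cells. The subunits of the energy sensor AMPK moved apart: SNF4Agamma fell by 0.43 ± 0.08 and alc rose by 0.33 ± 0.11, and AMPKalpha stood at 0.16 ± 0.07 without passing, all in the authors' deposited table. The stress-induced inhibitor gene scyl fell by 0.26 ± 0.10, while Tsc1 and gig, which encode the TSC complex, stood at −0.04 ± 0.09 and −0.01 ± 0.09 in the authors' deposited table and did not pass.

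Among genes of the amino acid input to TOR 3 of 18 rose and 2 fell after Armitage knockdown, a share of 27.8% beside 28.6% of all rows. The largest change was that of path, the amino acid transporter gene pathetic, which fell by 0.87 ± 0.07 in the authors' deposited table (Benjamini-Hochberg adjusted p = 4.86e-35), with means of 1618 in siARMI cells and 2966 in siLUC cells. Both Rag GTPase genes rose, RagA-B by 0.64 ± 0.12 and RagC-D by 0.30 ± 0.12 in the authors' deposited table. In the GATOR2 complex mio rose by 0.36 ± 0.14 and Nup44A, shared with the nuclear pore, fell by 0.52 ± 0.13 in the authors' deposited table. The GATOR1 genes Nprl2, Nprl3 and Iml1 lay between −0.09 and 0.00 on the log2 scale in the authors' deposited table and did not pass.

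**Figure D5:**
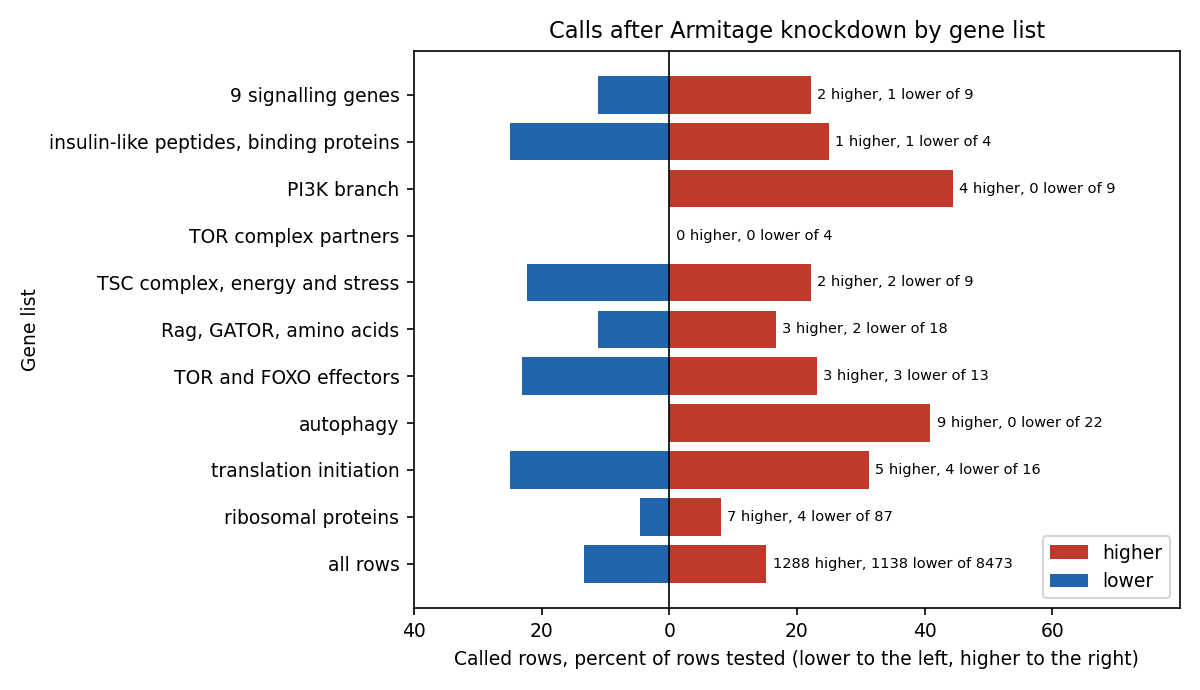
Percent of tested rows called higher (right) and lower (left) after Armitage knockdown for each gene list, with the counts beside the bars and all rows at the bottom. The 9 signalling genes had 2 higher and 1 lower, autophagy had 9 higher and 0 lower of 22, and rows matched as ribosomal proteins had 7 higher and 4 lower of 87, and of all rows 15.2% were higher and 13.4% lower.

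Of 13 effectors of TOR and Foxo 3 rose and 3 fell after Armitage knockdown, which is 46.2% called beside 28.6% of all rows. Besides Sesn, Lpin, which encodes the lipin phosphatidate phosphatase, rose by 0.66 ± 0.08 and REPTOR-BP, the partner of a transcription factor that TOR inhibits, by 0.60 ± 0.18 in the authors' deposited table. The lipase gene bmm, known as a Foxo target, fell by 0.86 ± 0.26 and the activin-like ligand gene daw by 2.51 ± 0.57, at a mean count of 19.2, in the authors' deposited table. SREBP, the regulator of lipid synthesis, fell by 0.19 ± 0.05 in the authors' deposited table. The partners of Thor and S6k in translation, eIF4E1 and RpS6, stood at 0.16 ± 0.07 and −0.12 ± 0.06 in the authors' deposited table and did not pass (Benjamini-Hochberg adjusted p = 0.0778 and 0.127).

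Autophagy, translation initiation and the ribosomal proteins are processes that TOR is known to control, and differences between these lists were not tested. Of all rows 28.6% were called after Armitage knockdown, 15.2% higher and 13.4% lower, and 37.3% were under 0.05 before adjustment. In autophagy, which active TOR restrains, 9 of 22 genes (40.9%) rose and 0 fell, and the same 9 were the ones under 0.05 before adjustment. The median log2 fold change was 0.22 in the authors' deposited table. Atg16, part of the conjugation machinery, rose by 0.90 ± 0.10, the protease gene Atg4a by 0.62 ± 0.13, Atg18b by 0.62 ± 0.19 and the receptor gene ref(2)P by 0.28 ± 0.09 in the authors' deposited table. Atg9, the membrane scramblase gene, rose by 0.38 ± 0.11 and the lipid transfer gene Atg2 by 0.29 ± 0.07 in the authors' deposited table. Atg1, the kinase gene that starts autophagy, did not pass, at 0.13 ± 0.09 in the authors' deposited table. Of 16 translation initiation genes 5 rose and 4 fell, a share of 56.2% beside 28.6% of all rows. The initiation factor gene eIF4G2 rose by 0.56 ± 0.08 while the subunit genes eIF2beta and eIF2gamma fell by 0.34 ± 0.07 and 0.29 ± 0.07 in the authors' deposited table. The cap-binding repressor gene eIF4EHP rose by 0.45 ± 0.13 and pAbp, the poly(A)-binding protein gene, by 0.20 ± 0.05, while eIF3c fell by 0.23 ± 0.06, all in the authors' deposited table. Among 87 rows matched as cytosolic ribosomal proteins by the start of the symbol 12.6% were called, beside 28.6% of all rows, with 7 higher and 4 lower. Their median was 0.04 (log2) in the authors' deposited table. The match took in 3 rows whose symbol ends in -like and does not name a subunit of the ribosome, and without them 7 of 84 rose and 3 fell (11.9%), a choice made after seeing the data. RpL39, RpL36A and RpL22 rose by 0.29 ± 0.06, 0.27 ± 0.08 and 0.25 ± 0.07, and RpS3A and RpL37a fell by 0.21 ± 0.06 and 0.19 ± 0.07 in the authors' deposited table. RpLP0-like, the called row among those ending in -like, fell by 0.37 ± 0.15 in the authors' deposited table.

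Back-calculated siYB values of the pathway genes with the smallest adjusted p-values after Armitage knockdown are given beside their siARMI values, with the range from moving the siARMI value by its error. ImpL2 was at −1.04 (−1.12 to −0.94) in siYB cells, where its unadjusted p was 0.0381 in the authors' deposited table, and at −2.01 in siARMI cells. For Ilp6 the siYB value was 0.67 (0.48 to 0.85) and the siARMI value 1.52. Sesn stood at 0.32 (0.24 to 0.40) in siYB cells and 1.06 in siARMI cells, and Lpin at 0.36 (0.28 to 0.44) in siYB cells and 0.66 in siARMI cells. For path the siYB value was −0.19 (−0.24 to −0.13) and the siARMI value −0.87, and SNF4Agamma was at −0.21 (−0.28 to −0.14) in siYB cells and −0.43 in siARMI cells. In siYB cells the unadjusted p in the authors' deposited table was 0.343 for Ilp6, 0.418 for Sesn and 0.335 for Lpin. It was 0.524 for path and 0.613 for SNF4Agamma. The ranges cover no error of the siYB counts, so a range clear of 0 does not show a change in siYB cells. None of these genes was called in siYB cells, where 0.189% of all rows were, and both comparisons use the siLUC libraries.

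Markers of other cell types changed in part after Armitage knockdown, and their part in the results above was not tested. Of the follicle and ovarian somatic markers 4 of 8 rose and 4 fell, beside 15.2% of all rows called higher and 13.4% lower. Their summed back-calculated mean was 22508 in siARMI cells and 24486 in siLUC cells. Fas3, bab1, shg and Hr39 were the 4 higher ones, with Fas3 at 2.13 ± 0.18, and bab2, piwi, tj and zfh1 the 4 lower ones, with bab2 at −1.17 ± 0.10 in the authors' deposited table. The 6 germ cell markers with a row summed to 146.4 in siARMI cells and 58.1 in siLUC cells, mostly AGO3. For muscle, 2 of 4 markers had rows and summed to 145.4 in siARMI cells and 89.0 in siLUC cells, and for neurons and glia 2 of 4 summed to 373.6 in siARMI cells and 304.1 in siLUC cells. Hml, Lsp2, Syt1 and repo were among the markers with no row. The neuronal marker elav had a mean count of 337.1 in the authors' deposited table. It did not pass, at 0.30 ± 0.14, and neither did nSyb or Act57B. Both srp and Mhc were called higher, at 1.05 ± 0.19 and 1.08 ± 0.27 in the authors' deposited table. Their mean counts there were 189.4 and 62.9.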

How the data were processed

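Per the labels' protocols, poly(A)-selected RNA was made into libraries with a directional kit. DESeq2, edgeR, Salmon 1.7.0, STAR, Bowtie and HOMER appear without roles in the submitters' processing notes. The build and annotation used for counting, and any use of strand, were not given in the sources used here. The authors deposited 1 table for each knockdown against siLUC. Its mean normalised count is a signal averaged by the authors over the libraries of both groups, so depth per library is unknown. The log2 fold changes as deposited had been shrunk toward 0 by the authors, and their p-values as deposited are used unchanged; adjusted p-values recomputed from them differed by at most 3.64e-14. Signs were read as knockdown over control, since each targeted gene is negative in its own table.

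With no counts per library, the planned edgeR fallback was not run. Rows with an adjusted p under 0.05 over the whole table were called, and intervals are the estimate ± 1.96 deposited errors. Gene positions and exon lengths come from BDGP6.54 (Ensembl release 115), where Tor was looked up as mTor, and Vps34 was matched to the row Pi3K59F. The series design has a single siLUC group, so the controls were taken as shared by the tables. Back-calculated siYB values were chosen after seeing the data. Calculations used Python 3.11.15, pandas 2.3.3 and scipy 1.17.1 and were tested on simulated data.

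The 9 genes and all gene lists were chosen with earlier results of these data known. By rule, the text names all 9, the called genes of each other list (at most 6 per list, by adjusted p), the targeted genes and the markers. Genes of these lists named without a call were chosen after their values were seen. Ribosomal proteins were matched by the start of the symbol. Alternatives were 2 other thresholds, adjustment over gene rows or over rows at or above the median count, a minimum log2 fold change, Bonferroni adjustment and another gene length.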

Additional observations from a re-analysis of the deposited data

How the results depend on the processing

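No paired analysis was possible because the deposited columns carry no replicate numbers and no values per library; for the same reason leaving out libraries and other normalisations were not run. After Armitage knockdown the calls among the 9 signalling genes were 2 at an adjusted p under 0.01, where Akt no longer passed, and 3 at 0.1 or over gene rows only. They were 2 over rows at or above the median count, where Thor lies below that count and was not tested. Requiring a log2 fold change of 1 or more in either direction left 1 of the 9 genes, 4 of the other pathway genes and 559 of all rows, and Bonferroni adjustment left 1, 9 and 915; the gene left among the 9 was Thor in both cases. After Yb knockdown no alternative called any of the 9 or of the other pathway genes, and of all rows 5 were called over gene rows only, which leaves out the transposons by construction. With the longest transcript as length the highest level per kb was 8.10 times the lowest. Moving the siARMI fold change by its error shifted the back-calculated siYB values of the 9 genes by at most 0.19, and other scalings by at most 0.02, choices added after seeing the data. Without depth per library, what the counts of Thor can resolve is unknown beyond its deposited error.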
